A study of Mus musculus with 24 samples.

Results

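The peaks described here were more accessible with dexamethasone (Dex) and less accessible with interleukin 4 (IL4) in the same wild-type macrophages. They were chosen by the deposited counts of an ATAC-seq experiment, an assay that reads open chromatin through where a transposase can insert adapters. On the log2(CPM + 0.5) scale, where CPM is the count of a peak relative to the library total in peaks, a member had a mean at least 0.5 above vehicle with Dex and at least 0.5 below vehicle with IL4 in wild-type (WT) libraries. All 4 WT Dex libraries also had to lie above all 4 WT IL4 libraries. The rule picked 146 of 144411 peaks, or 0.101%. Because WT libraries made the choice, WT values are given as a description without a test, and tests are kept to contrasts between knockout groups, whose values took no part in it. The fit takes its estimate of spread from all 24 libraries, WT included.

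The cells were bone marrow derived macrophages of male C57BL/6 mice aged 8 to 10 weeks, grown in L-cell conditioned medium. Both genotypes carried LysM-Cre+/+, a recombinase driven by a promoter active in myeloid cells. The knockout (KO) cells were GRIP1fl/fl and the WT cells GRIP1wt/wt, so the WT cells also express Cre. GRIP1, encoded by Ncoa2, is a coactivator that binds nuclear receptors. Each genotype was treated with 100 nM Dex, with 10 ng/ml IL4 or with vehicle. The 6 groups, KO Dex, KO IL4, KO vehicle, WT Dex, WT IL4 and WT vehicle, had 4 libraries each. Titles give 24 h for every group, whereas the treatment label of the vehicle groups gives 25 h. The labels do not say that replicates came from separate mice or cultures, so p-values measure the spread between these libraries, which may be technical.

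Dex is a synthetic glucocorticoid. It binds the glucocorticoid receptor, a nuclear receptor that enters the nucleus, binds pairs of half-sites in DNA and recruits coactivators such as GRIP1. IL4 acts through its receptor and the transcription factor STAT6, and drives macrophages to the alternatively activated state. Both stimuli are known for dampening inflammatory macrophage responses.

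Few of the 146 peaks cover a promoter, and the sequences at those that do are shown to place the factors' motifs at the start sites. Of the 142 peaks searched, 7 overlapped a RefSeq promoter window (build GRCm38.p6, the mm10 coordinates of the files), taken as 260 bases that start 250 bases before the gene start. The windows below lie wholly or mostly inside their peak and were picked because they hold a match; the Nt5dc2 window, wholly inside its peak, holds none and is not printed. Capitals mark matches on either strand to the AP-1 motif TGANTCA, the glucocorticoid receptor half-site AGAACA, the STAT6 spacing TTCNNNNGAA or the C/EBP motif TTGCNNAA. No matches overlap in these windows.
Lcn2, chr2:32387730-32387989, minus strand: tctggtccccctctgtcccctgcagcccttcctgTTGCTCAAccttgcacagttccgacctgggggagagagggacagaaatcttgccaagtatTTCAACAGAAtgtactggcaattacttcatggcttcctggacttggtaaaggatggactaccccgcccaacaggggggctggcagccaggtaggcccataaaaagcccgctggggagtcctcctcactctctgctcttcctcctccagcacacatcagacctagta
Ctla2a, chr13:60936616-60936875, minus strand: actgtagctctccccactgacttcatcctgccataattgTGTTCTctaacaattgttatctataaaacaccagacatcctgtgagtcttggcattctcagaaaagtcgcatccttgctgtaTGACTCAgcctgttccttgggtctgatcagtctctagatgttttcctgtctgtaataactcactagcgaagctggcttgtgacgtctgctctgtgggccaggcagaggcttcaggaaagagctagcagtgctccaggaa
Notch4, chr17:34564045-34564304, plus strand: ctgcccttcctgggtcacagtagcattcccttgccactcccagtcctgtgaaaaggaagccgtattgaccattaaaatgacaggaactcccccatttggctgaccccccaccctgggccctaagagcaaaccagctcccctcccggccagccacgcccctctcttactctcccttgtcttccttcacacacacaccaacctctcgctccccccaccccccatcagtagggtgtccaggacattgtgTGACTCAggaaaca
4930471E19Rik, chr10:120636098-120636357, minus strand: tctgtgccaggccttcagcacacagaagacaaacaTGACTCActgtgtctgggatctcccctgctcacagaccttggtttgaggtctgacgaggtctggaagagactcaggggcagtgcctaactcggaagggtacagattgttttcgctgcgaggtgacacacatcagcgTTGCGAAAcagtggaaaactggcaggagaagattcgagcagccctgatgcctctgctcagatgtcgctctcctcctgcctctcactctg
The AP-1 letters stood in the windows of 5 of the 7 peaks, and inside the peak itself in 4 of them. They stood in 7.03% of all 32851 RefSeq windows of this length and in 5.49% of the 15307 that overlap any peak. The half-site was present at 1 of the 7 peaks, against 16.7% of all windows and 10.9% of those that overlap any peak. The STAT6 spacing was present at 1 peak, the Lcn2 promoter, against 6.09% and 4.95%. The C/EBP motif was present at 2 peaks, against 9.85% and 7.87%. The full palindrome AGNACANNNTGTNCT was found at none of the 7. It contains the half-site when the free base of AGNACA is A or that of TGTNCT is T. The palindrome was found in 0.0609% of all windows and 0.0131% of those that overlap any peak. With 7 peaks these are descriptions of these letters, not evidence of binding.

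Libraries held 5820149 to 21939330 counts in peaks, both extremes being WT Dex libraries (replicates 2 and 4). The deletion could not be checked: the labels do not name the floxed exon, and the most accessible of 28 peaks assigned to Ncoa2 (chr1:13372246-13374626) had 75.1 to 93.1 CPM in KO libraries and 73.5 to 94.3 CPM in WT libraries. All 9 macrophage marker genes had a peak within 1 kb of a transcription start site (TSS), with summed levels of 258 to 294 CPM over the 6 groups. Single genes of this list differed more than the sum: in KO Dex, KO IL4 and KO vehicle Mertk had 2.63, 8.38 and 2.90 CPM. Fcgr1 had 27.8, 21.0 and 30.7 CPM in these groups. None of 6 T and NK cell genes and none of 6 fibroblast genes had a peak that near a TSS. For neutrophils 4 of 7 genes had one, and Ly6g, Mpo and Elane did not. The sums were 38.6 CPM in KO Dex, 34.0 CPM in KO IL4 and 32.2 CPM in KO vehicle. In the same groups S100a8 had 24.3, 18.4 and 16.0 CPM, S100a9 3.42, 1.72 and 2.26 CPM and Ngp 1.82, 1.14 and 1.61 CPM. Camp went the other way with Dex, at 9.04, 12.7 and 12.3 CPM. A peak that near a TSS was also found for 2 of 6 dendritic cell genes (22.9 to 25.3 CPM) and 3 of 6 B cell genes (8.05 to 10.8 CPM). The same held for 3 of 5 mast cell and basophil genes (15.7 to 18.3 CPM) and 3 of 5 erythroid and megakaryocyte genes (47.4 to 55.4 CPM). Within the last list Pf4 had 31.8, 19.2 and 24.8 CPM in KO Dex, KO IL4 and KO vehicle, the order of the 146 peaks, and Itga2b 17.9, 31.5 and 19.2 CPM. Levels of some of these markers differed between treatments, and their part in the results was not tested. Each library pools many cells, so a change in fewer cells and a smaller change in all cells cannot be told apart. CPM values are also relative to the library total.

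The 146 peaks together gave 1617, 1782, 1678 and 1765 CPM in the KO Dex libraries, 648, 637, 674 and 636 CPM in the KO IL4 libraries and 959, 1039, 975 and 1007 CPM in the KO vehicle libraries. No KO group overlapped another. In WT libraries the sums were 1830, 1978, 1967 and 1855 CPM with Dex, 623, 617, 591 and 613 CPM with IL4 and 1031, 1043, 1066 and 1029 CPM with vehicle, an order that the choice of the peaks fixes. No member was at 0 counts in any library.

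**Figure D1:**
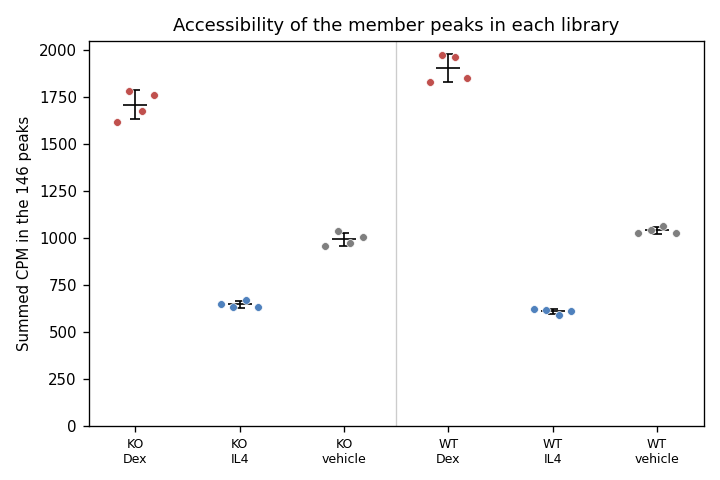
Summed CPM of the 146 peaks (y axis) in each library (points), by genotype and treatment (x axis), with the mean and SD of 4 libraries in black. The KO Dex libraries lie between 1617 and 1782 CPM, above every KO vehicle library, and the KO IL4 libraries between 636 and 674 CPM, below every KO vehicle library; WT values chose the peaks.

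In WT libraries the median difference of the 146 peaks on the log2(CPM + 0.5) scale was 0.68 for Dex minus vehicle, with a range of 0.50 to 2.27, and -0.63 for IL4 minus vehicle, with a range of -1.28 to -0.50.  Just inside the Dex threshold were peaks assigned to Tbc1d14, Fam13a and Fam98a at 0.50, and just outside it peaks of P4ha3, Cd55 and Anxa11 at 0.50, 0.49 and 0.49. Just inside the IL4 threshold were peaks of Gpr174, Cd163 and Gata2 at -0.50, and just outside it peaks of Mark3, 1010001N08Rik and Rassf2 at -0.50. The threshold decided the number: 374 peaks met the rule at 0.4 and 19 at 0.7, and 243 met it at 0.5 when CPM was scaled with TMM factors (edgeR's trimmed mean of M-values).

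With CPM by library total, the combination was rare next to the opposite one. Dex reached the threshold at 5641 peaks in WT libraries and IL4 its negative at 7391, and 147 peaks passed both, of which 146 also met the separation of libraries. The mirror pattern, lower with Dex and higher with IL4 with all 4 libraries apart, held at 2477 peaks. A further 1451 peaks were higher with both agents. With TMM factors 243 peaks met the rule, and the mirror pattern was not counted on that scale.

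In KO libraries, which were not used for the choice, accessibility of most of the 146 peaks rose with Dex and that of a smaller share fell with IL4. The fit was edgeR's quasi-likelihood test over 130103 peaks, with Benjamini-Hochberg adjustment over all of them and an adjusted p threshold of 0.05. All 146 members passed the filter on low counts. Against KO vehicle, 118 members (80.8%) rose with Dex, where 6.97% of all tested peaks rose and 6.63% fell. The members' median log2 fold change was 0.73, with a range of -0.14 to 2.55, against a median of -0.01 over all tested peaks. None fell by edgeR, by DESeq2 or at an unadjusted p under 0.05.

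With IL4, 92 members (63.0%) fell against KO vehicle, where 13.9% of all tested peaks fell and 17.0% rose. The median log2 fold change was -0.59, with a range of -1.89 to 0.52, against -0.02 over all tested peaks. None rose by edgeR, by DESeq2 or at an unadjusted p under 0.05, although the fitted value lay above 0 for 9 members. These 2 comparisons share the 4 KO vehicle libraries. Of the 73 members with a mean count per library at or above the members' median of 55.1, 68 rose with Dex and 62 fell with IL4, and of the 73 below it 50 rose and 30 fell. The part of depth in this was not tested.

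Set directly against each other, KO Dex libraries were higher than KO IL4 libraries at 144 of the 146 members, where 20.4% of all tested peaks were higher and 21.9% lower. The median log2 fold change of Dex over IL4 was 1.35, with a range of 0.30 to 3.56, against 0.00 over all tested peaks. None was lower by edgeR, by DESeq2 or at an unadjusted p under 0.05. The 2 members that did not pass are assigned to Gm4832 and Ezh2.

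In CPM, without a model, all 4 KO Dex libraries lay above all 4 KO IL4 libraries at 136 members, against 11.6% of all peaks. KO Dex lay wholly above KO vehicle at 113 members, against 5.66% of all peaks, and KO IL4 wholly below KO vehicle at 74, against 9.05%. When the rule itself was applied to the KO libraries it picked 86 peaks, or 0.0596% of all. Of these, 43 are among the 146, which is 29.5% of the WT choice and 50.0% of the KO choice. The 86 peaks had medians of 0.73 for Dex and -0.64 for IL4 in WT libraries on the log2(CPM + 0.5) scale.

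**Figure D2:**
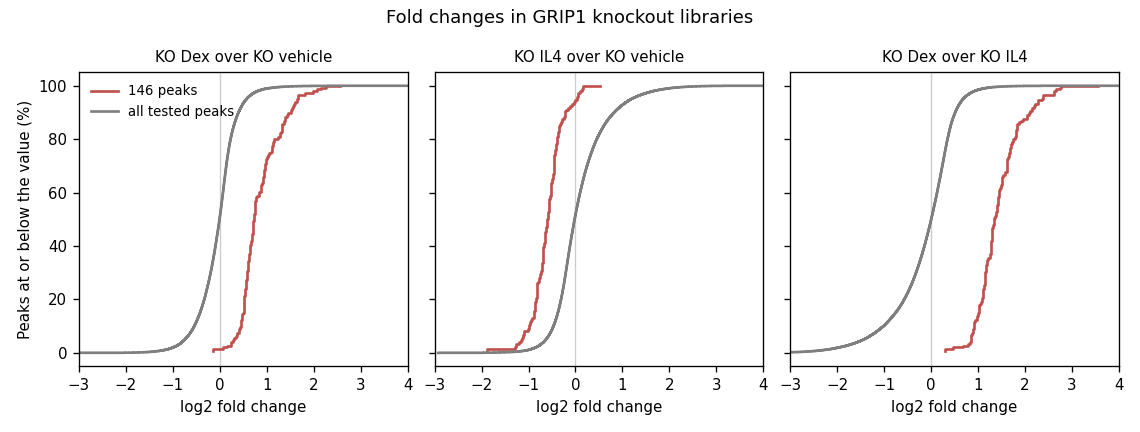
Cumulative share of peaks (y axis, percent) at or below each log2 fold change (x axis) in KO libraries, for the 146 peaks in red and all 130103 tested peaks in grey, with 1 panel per comparison. The red curve is shifted to the right with Dex (median 0.73), to the left with IL4 (median -0.59) and furthest to the right for Dex over IL4 (median 1.35).

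Other sets defined by WT values were read in the KO libraries in the same way. Of 5455 tested peaks at or above the Dex threshold in WT libraries, 62.4% rose with Dex in KO libraries, against 80.8% of the members. Of 6812 tested peaks at or below the IL4 threshold, 64.0% fell with IL4 in KO libraries, against 63.0% of the members. For the mirror pattern 40.9% fell with Dex and 85.2% rose with IL4 in KO libraries. These shares were not tested against each other, since the first 2 sets hold the members. The sets were also not matched by count, and among the members fewer of those with low counts were called.

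Genes known as glucocorticoid receptor targets held 6 of the 146 peaks (4.11%), against 0.222% of all peaks, at 5 of the 26 genes of a list chosen with earlier results of these data known. They are Fkbp5, Hif3a (2 peaks), Cd163, Tnfaip3 and Lcn2. The rule required a rise with Dex in WT libraries, so all peaks are not a like comparison for these genes. The share of this list among the 5641 peaks at or above the Dex threshold in WT libraries was not computed. Over all 310 tested peaks of that list, 102 rose and 19 fell with Dex in KO libraries (median log2 fold change 0.22), and 58 rose and 57 fell with IL4 (median -0.01). The list of 29 IL4 and STAT6 target genes, with 0.298% of all peaks, held no member, and at that share 0 is no contrast with the first list. Its 412 tested peaks had 48 that rose and 30 that fell with Dex in KO libraries, and 155 that rose and 36 that fell with IL4.

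Fkbp5 encodes a co-chaperone that lowers the affinity of the glucocorticoid receptor for hormone. Its member peak, chr17:28463675-28464350, lies inside the gene, 22.1 kb from the TSS (the annotation used gives gene spans without exons). It had 15.2, 16.2, 15.4 and 15.02 CPM in KO Dex libraries, 5.98, 6.86, 6.18 and 6.80 CPM in KO IL4 libraries and 9.78, 9.51, 10.3 and 9.80 CPM in KO vehicle libraries. The 3 KO groups did not overlap. Its log2 fold change was 0.71 ± 0.11 (SE) with Dex (adjusted p = 3.24e-07) and -0.64 ± 0.13 with IL4 (adjusted p = 2.36e-05). In WT libraries it averaged 17.99 ± 2.0 CPM with Dex, 6.19 ± 0.83 CPM with IL4 and 11.3 ± 2.1 CPM with vehicle (SD, n = 4 each). Of 28 tested peaks assigned to Fkbp5, 14 rose with Dex in KO libraries and 4 fell with IL4, while 1 fell with Dex and 3 rose with IL4.

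A second member lies 58.2 kb away, at chr17:28522573-28523693, outside the RefSeq span of the gene. It is 5.6 kb from another listed start of Fkbp5, not the one from which the 22.1 kb are counted. It lies 0.5 kb from the start of E230001N04Rik, an uncharacterised transcript, and was among the 6 members furthest apart between KO Dex and KO IL4. Its level was 55.9, 54.3, 57.1 and 62.2 CPM in KO Dex libraries, 9.63, 8.79, 10.3 and 11.4 CPM in KO IL4 libraries and 12.3, 10.6, 12.7 and 14.5 CPM in KO vehicle libraries. KO Dex stood far above the rest, whereas KO IL4 and KO vehicle overlapped. The rise with Dex had a log2 fold change of 2.26 ± 0.09 (adjusted p = 6.58e-37). The fall with IL4 was small, at -0.35 ± 0.11 (adjusted p = 0.00917), and did not pass without KO IL4 replicate 2 (-0.30) or without KO vehicle replicate 4 (-0.25).

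Hif3a encodes the alpha subunit HIF-3, of the family of transcription factors that respond to low oxygen. It held 2 members 0.9 kb apart inside the gene, each about 2 kb from a TSS. The larger, chr7:17058136-17059192, was the most accessible of all 146 peaks, with 79.1, 98.6, 84.9 and 95.4 CPM in KO Dex libraries, 21.6, 20.6, 21.4 and 20.6 CPM in KO IL4 libraries and 39.2, 52.1, 45.2 and 58.1 CPM in KO vehicle libraries. KO Dex libraries were all above, and KO IL4 libraries all below, the KO vehicle libraries. Its log2 fold change was 0.92 ± 0.12 with Dex (adjusted p = 1.64e-05) and -1.27 ± 0.14 with IL4 (adjusted p = 4.1e-07). In WT libraries it averaged 104 ± 9.5 CPM with Dex, 21.7 ± 2.9 CPM with IL4 and 53.1 ± 6.6 CPM with vehicle (SD, n = 4 each).

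The smaller Hif3a peak, chr7:17060103-17060315, carries a FANTOM enhancer mark in the authors' deposited table. It averaged 11.7 ± 0.97 CPM in KO Dex libraries, 1.96 ± 0.18 CPM in KO IL4 libraries and 3.03 ± 0.28 CPM in KO vehicle libraries (SD, n = 4 each). Relative to vehicle the balance differed from its neighbour, with a log2 fold change of 1.98 ± 0.15 with Dex and -0.68 ± 0.21 with IL4 (adjusted p = 0.00657), although the difference between the 2 peaks was not tested. Of the 5 tested Hif3a peaks, 4 rose with Dex and 4 fell with IL4 in KO libraries.

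**Figure D3:**
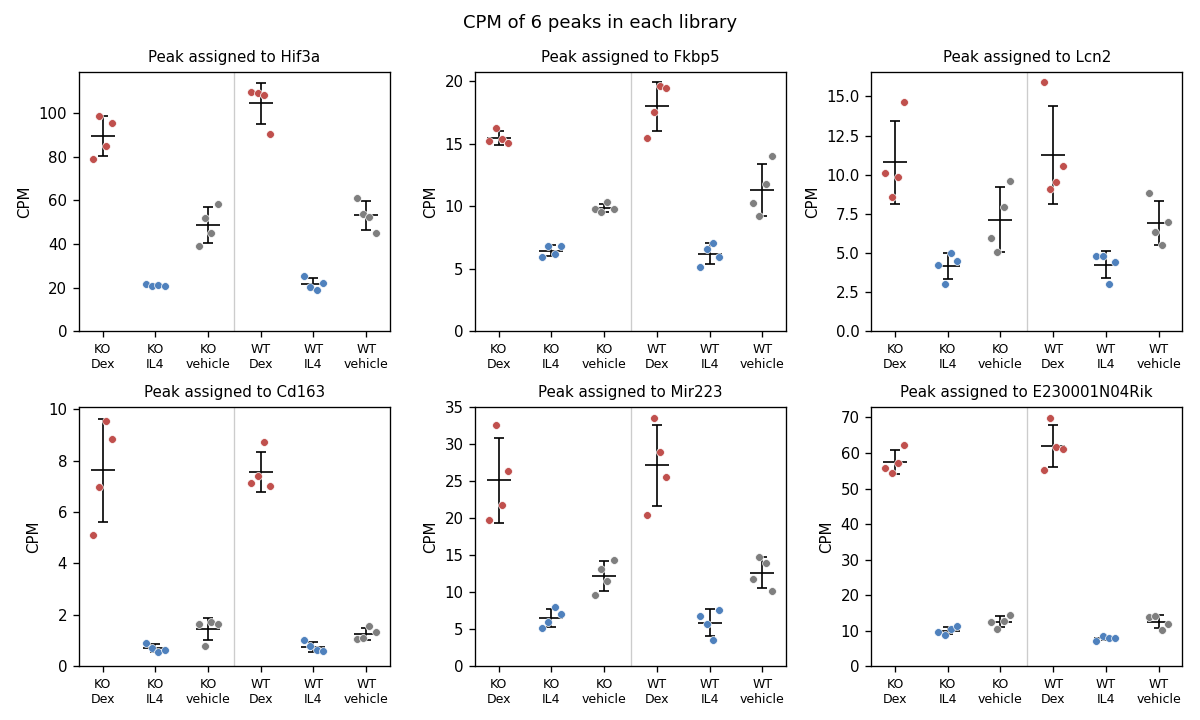
CPM (y axis) of 6 member peaks in each library (points), by genotype and treatment (x axis), with the mean and SD of 4 libraries in black; for Hif3a the larger peak is shown. In every panel the KO Dex mean is above the KO vehicle mean and the KO IL4 mean below it, with the largest fold for Dex at Cd163 and E230001N04Rik and for IL4 at Hif3a and Cd163.

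Cd163, the scavenger receptor for haemoglobin bound to haptoglobin and a classic marker of glucocorticoid-treated macrophages, had its member inside the gene at chr6:124320239-124320759. The level was 5.12, 6.98, 9.56 and 8.85 CPM in KO Dex libraries, 0.912, 0.694, 0.554 and 0.640 CPM in KO IL4 libraries and 1.65, 0.781, 1.72 and 1.63 CPM in KO vehicle libraries. Dex stood clear of both other KO groups, and IL4 overlapped vehicle through KO vehicle replicate 2. The log2 fold change was 2.55 ± 0.20 with Dex (adjusted p = 8.16e-19), the largest of all 146 members, and -1.01 ± 0.33 with IL4 (adjusted p = 0.013). Without KO vehicle replicate 4 the IL4 call was lost (-0.89). In WT libraries this peak was just inside the IL4 threshold. Of 9 tested Cd163 peaks, 8 rose with Dex, and 1 rose and 2 fell with IL4 in KO libraries.

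Tnfaip3 encodes A20, an enzyme that edits ubiquitin chains and limits NF-kB signalling. Its member peak, chr10:19047385-19047840, lies 32.2 kb from the TSS. It averaged 9.67 ± 0.32 CPM in KO Dex libraries, 3.22 ± 0.18 CPM in KO IL4 libraries and 5.93 ± 0.43 CPM in KO vehicle libraries (SD, n = 4 each). Both calls passed, with a log2 fold change of 0.75 ± 0.13 with Dex (adjusted p = 9.27e-06) and -0.93 ± 0.16 with IL4 (adjusted p = 2.19e-06). Of 25 tested Tnfaip3 peaks, 4 rose and 2 fell with Dex and 4 rose and 3 fell with IL4 in KO libraries.

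Lcn2 encodes lipocalin 2, a secreted protein that binds bacterial siderophores. Its peak, chr2:32387566-32388452, is the promoter printed above and holds the whole window. It had 10.1, 8.58, 9.86 and 14.6 CPM in KO Dex libraries, 4.26, 3.01, 4.98 and 4.48 CPM in KO IL4 libraries and 5.97, 5.04, 7.94 and 9.61 CPM in KO vehicle libraries. Here the spread was wide, and KO Dex overlapped KO vehicle. With Dex the log2 fold change was 0.68 ± 0.24, which did not pass (adjusted p = 0.0622), although it passed without KO Dex replicate 2 (0.79), without KO vehicle replicate 4 (0.90) and without WT Dex replicate 1 (0.69). With IL4 it was -0.81 ± 0.28 (adjusted p = 0.0361), a call lost without any of 5 KO libraries (-0.86 to -0.59): KO IL4 replicates 1, 2 and 4 and KO vehicle replicates 3 and 4. Only Dex over IL4 was clear, at 1.49 ± 0.25 (adjusted p = 6.5e-05). Of 3 tested Lcn2 peaks 1 rose and 2 fell with IL4 in KO libraries.

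Of the other lists, those of macrophage lineage genes and of chemokine receptors, integrins and migration held 1 member each, 0.685% of the members, against 0.272% and 0.240% of all peaks. Maf, a transcription factor of tissue macrophages, had a peak 92.5 kb from its TSS (chr8:115614005-115614755) at 34.1 ± 1.9 CPM in KO Dex libraries, 14.1 ± 0.77 CPM in KO IL4 libraries and 21.6 ± 1.8 CPM in KO vehicle libraries (SD, n = 4 each), and both calls passed. It was 1 of 80 tested peaks assigned to Maf, of which 11 rose and 6 fell with Dex and 11 rose and 20 fell with IL4 in KO libraries. Ccr1, a receptor for inflammatory chemokines, had a peak with a log2 fold change of 0.94 ± 0.20 with Dex (adjusted p = 0.000634) and -0.48 ± 0.24 with IL4 (adjusted p = 0.135). Of its 12 tested peaks 9 rose with Dex, and 3 rose and 1 fell with IL4. No member was held by the lists of inflammatory cytokines and NF-kB, interferon-stimulated genes, MAP kinase feedback, or RhoGEF, DOCK and RhoGAP genes. The same held for efferocytosis and scavenger receptors and for lipid metabolism. Each of these lists covered 0.118% to 0.503% of all peaks. Tnfaip3, which limits NF-kB signalling, and the scavenger receptor Cd163 were counted only in the list of glucocorticoid receptor targets.

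By the size of the smaller of the 2 WT effects, the leading peaks were assigned to Cep85, Prss16, Mir223, Lnpep, Hif3a, Grk4, 4933416E03Rik, the second Hif3a peak, Gng2, Rab10, Irf2bp2 and Mindy3. The peak of Cep85, a centrosomal protein, was the longest member at 2606 bases (chr4:134164521-134167126). It had 28.5, 16.5, 17.8 and 19.1 CPM in KO Dex libraries, 5.37, 3.93, 4.15 and 4.40 CPM in KO IL4 libraries and 10.4, 8.02, 8.34 and 7.17 CPM in KO vehicle libraries. KO Dex replicate 1 was the highest, and no groups overlapped. In WT libraries it averaged 35.6 ± 6.5 CPM with Dex, 4.44 ± 1.0 CPM with IL4 and 10.9 ± 1.2 CPM with vehicle (SD, n = 4 each).

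The peak nearest Mir223, which encodes a microRNA abundant in myeloid cells, lies 2.3 kb from its annotated start (chrX:96244207-96246109), and the nearest protein-coding gene, Vsig4, is 48.3 kb away. Its level was 19.8, 32.6, 21.7 and 26.4 CPM in KO Dex libraries, 5.17, 5.93, 8.03 and 7.04 CPM in KO IL4 libraries and 9.65, 13.2, 11.5 and 14.4 CPM in KO vehicle libraries. The groups did not overlap, and the log2 fold change was 1.08 ± 0.20 with Dex (adjusted p = 0.00087) and -0.96 ± 0.25 with IL4 (adjusted p = 0.00564). At Prss16, a serine protease of the thymus, the peak inside the gene had log2 fold changes of 1.51 ± 0.17 with Dex and -1.10 ± 0.23 with IL4.

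Among the remaining leading peaks, all rose with Dex in KO libraries, with log2 fold changes of 0.96 (Grk4, a kinase of G protein-coupled receptors) to 1.82 (Gng2, a G protein gamma subunit). Both directions passed at Lnpep (an aminopeptidase), Grk4, 4933416E03Rik and Irf2bp2 (a transcriptional corepressor). With IL4 3 of them did not pass. Gng2 had -0.45 ± 0.19 (adjusted p = 0.0605) and Rab10, a GTPase of vesicle traffic, -0.40 ± 0.18 (adjusted p = 0.0944), which passed without KO IL4 replicate 1 or 3 (-0.52 each). Mindy3, a deubiquitinase, had 0.09 ± 0.26 with IL4 (adjusted p = 0.833): its 4 KO IL4 libraries, at 1.32 to 1.85 CPM, overlapped the KO vehicle libraries, at 1.18 to 1.63 CPM, whereas in WT the IL4 libraries, at 0.519 to 0.959 CPM, lay below vehicle, at 1.81 to 2.08 CPM. WT values chose this peak, so no genotype difference was tested.

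**Figure D4:**
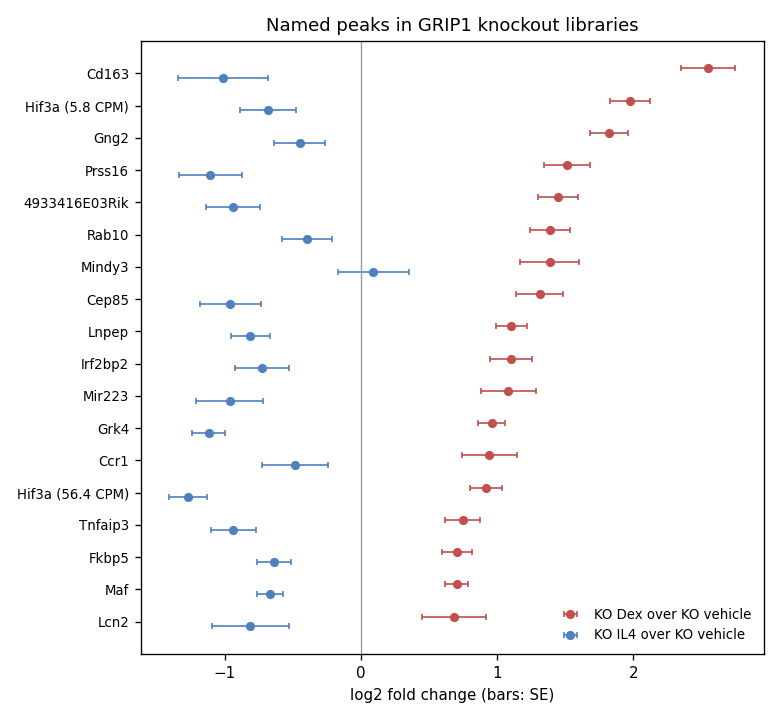
Log2 fold change in KO libraries (x axis) of Dex over vehicle in red and IL4 over vehicle in blue, with SE bars, for the 12 leading peaks by WT effect and the members on the gene lists (y axis; for Hif3a the mean CPM tells the 2 peaks apart). Every red point is above 0, from 0.68 (Lcn2) to 2.55 (Cd163), and every blue point but that of Mindy3 (0.09) is below 0; both comparisons share the KO vehicle libraries.

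Furthest apart between KO Dex and KO IL4 were Cd163 (log2 fold change 3.56), Klhl6 (2.77), Toporsl (2.75), the smaller Hif3a peak (2.66), Prss16 (2.62) and the E230001N04Rik peak (2.61). The peak assigned to Klhl6, an adaptor of a ubiquitin ligase, lies 31.2 kb from the TSS (chr16:20013803-20014708) and was tight between libraries, at 27.6 ± 2.0 CPM in KO Dex, 4.33 ± 0.32 CPM in KO IL4 and 6.82 ± 0.49 CPM in KO vehicle (SD, n = 4 each). Its WT values were close by, at 28.2 ± 0.95 CPM with Dex, 4.30 ± 0.69 CPM with IL4 and 6.60 ± 0.62 CPM with vehicle. At Toporsl the IL4 fold change in KO libraries, -0.60 ± 0.29, did not pass (adjusted p = 0.124), but passed without WT Dex replicate 1, KO Dex replicate 1 or KO Dex replicate 2 (-0.60, -0.59 and -0.60) and with the replicate block (-0.58).

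At the other end, the 4 members with the smallest difference were all weakly accessible. Gm4832 had 2.51, 2.55, 1.66 and 1.57 CPM in KO Dex libraries, 1.82, 1.46, 2.03 and 1.76 CPM in KO IL4 libraries and 2.29, 1.42, 1.72 and 1.72 CPM in KO vehicle libraries, and these groups overlapped throughout. The log2 fold change of Dex over IL4 was 0.30 ± 0.23 (adjusted p = 0.314) there and 0.46 ± 0.31 (adjusted p = 0.239) at the peak assigned to Ezh2, 73.2 kb from that histone methyltransferase gene. Gata2 (0.67 ± 0.24, adjusted p = 0.0191) and Fbxl5 (0.79 ± 0.24, adjusted p = 0.00448) passed, but neither passed against KO vehicle with Dex or with IL4. Ezh2 passed with IL4 only without KO vehicle replicate 2 (-0.87). The Gata2 call was lost without KO Dex replicate 4 (0.56), KO IL4 replicate 1 (0.61) or KO IL4 replicate 4 (0.58).

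Accessibility itself ranged from 0.794 to 56.4 CPM over the 146 peaks, with a median of 4.35 against 2.40 for all peaks. The brightest after Hif3a was a 2028-base peak 14.7 kb from Acot13, a thioesterase, at 68.4 ± 10 CPM in KO Dex libraries, 33.3 ± 4.4 CPM in KO IL4 libraries and 52.0 ± 8.5 CPM in KO vehicle libraries (SD, n = 4 each). Its rise with Dex was modest at 0.44 ± 0.12 (adjusted p = 0.0191) and did not pass without KO vehicle replicate 4 (0.41), whereas the fall with IL4 was -0.70 ± 0.13 (adjusted p = 0.000299). Next came peaks assigned to Mir6941, Mut, Gm34286 and 4921513I03Rik, at which both calls passed. The Mut peak, within the gene for methylmalonyl-CoA mutase, had the largest Dex effect of these at 1.27 ± 0.10, with 41.6, 55.3, 45.0 and 50.2 CPM in KO Dex libraries, 8.52, 12.8, 11.4 and 13.2 CPM in KO IL4 libraries and 17.4, 22.5, 21.1 and 21.0 CPM in KO vehicle libraries. The peak that the authors' deposited table assigns to 4921513I03Rik holds the 4930471E19Rik promoter printed above.

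Of the 7 peaks within 1 kb of the TSS of their assigned gene, 6 rose with Dex and 6 fell with IL4 in KO libraries. Ctla2a, an inhibitor of cathepsin-like proteases, had 18.2, 19.7, 15.6 and 14.4 CPM in KO Dex libraries, 3.65, 6.01, 5.54 and 5.12 CPM in KO IL4 libraries and 10.0, 12.2, 10.9 and 9.89 CPM in KO vehicle libraries, with no overlap. Its log2 fold change was 0.69 ± 0.12 with Dex (adjusted p = 5.63e-06) and -1.12 ± 0.14 with IL4 (adjusted p = 7.63e-10). Notch4, a receptor of the Notch family, had 0.68 ± 0.13 with Dex and -0.46 ± 0.16 with IL4 (adjusted p = 0.0161), the second of which was lost without KO IL4 replicate 2 (-0.43) or KO vehicle replicate 3 (-0.39). At Gm46941 the Dex rise of 0.95 ± 0.17 passed (adjusted p = 1.8e-05), but IL4 gave 0.03 ± 0.20 (adjusted p = 0.943).

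A pair of members was held by 7 genes: Hif3a, Cd55b, Epc2, Ttpal, Nt5dc2, 4933433H22Rik and Adamtsl4. Pairs lay 63 bases (Epc2) to 10.5 kb (Cd55b) apart and are not independent of each other. At Adamtsl4, which encodes an extracellular matrix protein, both peaks passed in both directions. At Nt5dc2 the promoter peak rose by 0.99 ± 0.10 with Dex and changed by -0.62 ± 0.12 with IL4, and the smaller peak 426 bases away by 0.64 ± 0.18 and -0.69 ± 0.22. The calls of the smaller peak were lost without KO Dex replicate 2 (0.49) or KO vehicle replicate 2 (0.51) for Dex and without KO IL4 replicate 2 (-0.54) for IL4. Cd55b, a relative of the complement inhibitor decay-accelerating factor, fell with IL4 at both peaks (-1.21 ± 0.27 and -0.99 ± 0.29) without passing with Dex (adjusted p = 0.124 and 0.188). The second of these IL4 calls was lost without KO vehicle replicate 2 (-0.82), and the first peak passed with Dex when WT Dex replicate 1, WT vehicle replicate 1 or WT vehicle replicate 4 was left out (0.53 each time).

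The other pairs were split. At Epc2, whose product belongs to a histone acetyltransferase complex, both peaks rose with Dex (0.67 ± 0.17 and 0.71 ± 0.19), while IL4 passed at the one nearer the gene (-0.74 ± 0.20, adjusted p = 0.00253) and not at its neighbour (-0.41 ± 0.22, adjusted p = 0.169). Ttpal rose with Dex at both (1.16 ± 0.16 and 1.64 ± 0.38) and passed with IL4 at neither (adjusted p = 0.0636 and 0.854), although the first passed without KO IL4 replicate 4 (-0.57) or KO vehicle replicate 3 (-0.51). The larger 4933433H22Rik peak, 41.1 kb from that transcript's start, passed in both directions (0.59 ± 0.08 and -0.71 ± 0.09). The smaller, with 0.59 ± 0.22 (adjusted p = 0.0638) and -0.71 ± 0.27 (adjusted p = 0.036), changed its calls in several fits: Dex passed without KO Dex replicate 2 (0.68), KO vehicle replicate 3 (0.71) or WT Dex replicate 1 (0.59), and IL4 did not pass without KO IL4 replicate 2 (-0.45), KO vehicle replicate 1 (-0.62) or KO vehicle replicate 3 (-0.60).

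By position, the 146 peaks were mostly outside promoters. Within 1 kb of a listed TSS were 9 of them (6.16%), against 12.8% of all peaks, 57 (39.0%) were 1 to 10 kb away, against 28.9%, 66 (45.2%) were 10 to 50 kb away, against 43.3%, and 14 (9.59%) were further, against 14.97%. Inside a protein-coding gene were 57 (39.0%), against 56.8% of all peaks. Of the 111 in the authors' deposited table, 20 (18.02%) carried a FANTOM enhancer mark, against 13.8% of all peaks in that table. Members had a median length of 536 bases against 392 for all peaks. The share of 1 kb or longer was close, with 15 members (10.3%) against 9.26% of all peaks. All 15 of these rose with Dex and 12 fell with IL4 in KO libraries, against 80.8% and 63.0% of all members. The share among all long peaks was not computed. These shares were not tested.

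**Figure D5:**
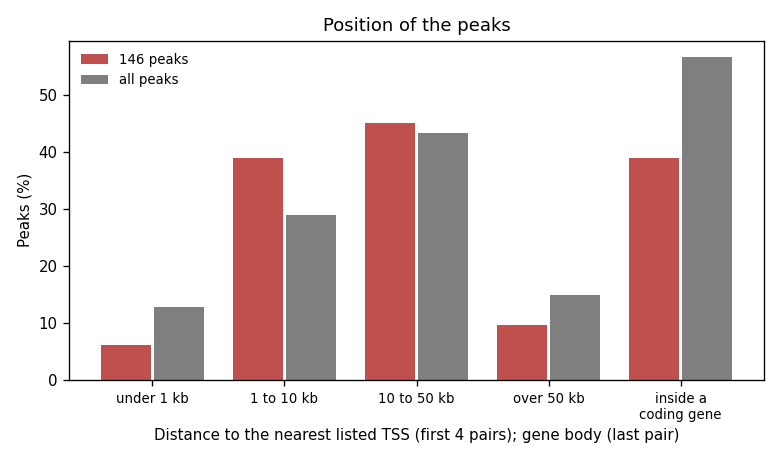
Share of peaks (y axis, percent) by distance to the nearest listed TSS (first 4 pairs of bars) and inside a protein-coding gene (last pair), for the 146 peaks in red and all 144411 peaks in grey. The 146 peaks are less often within 1 kb of a TSS (6.16% against 12.8%) and inside a coding gene (39.0% against 56.8%), as a description without a test.

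The peaks were spread over 20 chromosomes, with 14 each on chromosomes 1 and 2 and 13 each on chromosomes 13 and 17, and were assigned to 139 genes. Neither these counts nor those of neighbouring pairs were set against all peaks. Neighbouring members lay within 100 kb of each other in 13 pairs. One such pair lies in the apolipoprotein cluster: the peaks assigned to Apoc1 and Apoc2 are 16.2 kb apart, at 18.8 ± 1.4 and 5.22 ± 0.28 CPM in KO Dex libraries, 7.08 ± 0.77 and 1.83 ± 0.28 CPM in KO IL4 libraries and 10.0 ± 1.4 and 3.21 ± 0.30 CPM in KO vehicle libraries (SD, n = 4 each). This pair was chosen for mention after its values were seen, and both of its peaks passed with both agents.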

How the data were processed

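Open chromatin was measured by ATAC-seq in 24 libraries, 4 for each of 6 groups taken from the sample titles. The deposited file holds whole-number counts per peak; per the submitters' processing notes the tools were fastp, Bowtie2, SAMtools, MACS2, featureCounts and edgeR, on mm10, without versions or filters in the sources used here. The authors' deposited table of differential peaks gave only gene assignments, TSS positions and FANTOM marks. It names the gene of 111 members, and the other 35 took the nearest TSS of that table or RefSeq.

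From the counts, CPM was computed by column sum, and edgeR 4.0.16 (R 4.3.3) was fitted to all 24 libraries with 1 mean per group, TMM, filterByExpr and robust quasi-likelihood. DESeq2 1.42.0, other scalings, no filter, KO libraries alone, a replicate block and leaving out each library were alternatives. A simulation of the fit was run for KO Dex against KO vehicle only, with libraries drawn independently of each other. Its outcome is not given here.

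The members and gene lists were chosen with earlier results of these data known. Named members were the 12 with the largest smaller WT effect, the 6 highest and 4 lowest for KO Dex over KO IL4, the 6 brightest, those on a list, up to 6 within 1 kb of the TSS of their gene, and genes with 2 or more.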

Additional observations from a re-analysis of the deposited data

Results flagged for a closer look

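For the 45 named peaks the highest or lowest of the 4 libraries of each group was compared with the other 3, which gave 15 libraries that stood apart among 270 groups; chance alone gives about 1 in 20. With Dex, these were the larger Hif3a peak in WT Dex replicate 4 (90.2 CPM, the others 108 to 109.8), the Nt5dc2 promoter peak in WT Dex replicate 1 (23.2 CPM, the others 29.96 to 30.9) and the Klhl6 peak in WT Dex replicate 2 (26.8 CPM, the others 28.6 to 28.8).

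With IL4 in KO cells they were the 4933416E03Rik peak in replicate 1 (2.53 CPM, the others 1.54 to 1.68), the Irf2bp2 peak in replicate 4 (1.68 CPM, the others 2.31 to 2.43), the Ccr1 peak in replicate 2 (1.54 CPM, the others 2.64 to 2.84), the Notch4 peak in replicate 3 (4.89 CPM, the others 3.78 to 3.95) and the larger 4933433H22Rik peak in replicate 2 (13.3 CPM, the others 17.9 to 18.5). With IL4 in WT cells they were the Mindy3 peak in replicate 3 (0.519 CPM, the others 0.902 to 0.959), the Ccr1 peak in replicate 1 (1.35 CPM, the others 2.11 to 2.18) and the Notch4 peak in replicate 4 (3.45 CPM, the others 2.60 to 2.70).

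With vehicle they were the 4921513I03Rik peak in KO replicate 1 (28.3 CPM, the others 22.5 to 23.1), the Cd163 peak in KO replicate 2 (0.781 CPM, the others 1.63 to 1.72), the Fbxl5 peak in KO replicate 3 (1.19 CPM, the others 1.52 to 1.56) and the smaller Nt5dc2 peak in WT replicate 3 (4.47 CPM, the others 3.18 to 3.30).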

How the results depend on the processing

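The number of member peaks followed the rule: 374 at a threshold of 0.4, 19 at 0.7, 350 with a pseudocount of 0.1, 43 with a pseudocount of 2 and 243 on TMM-scaled CPM, but 147 without the separation of libraries and 144 to 173 without 1 WT library. Members called in KO libraries then numbered, for the rule at 0.4, at 0.7, with a pseudocount of 2 and on TMM-scaled CPM, 279, 18, 41 and 193 that rose with Dex, 208, 14, 41 and 148 that fell with IL4, and 359, 19, 43 and 238 higher in Dex than in IL4. With the 146 members, total-count scaling, DESeq2's size factors, loess offsets, no filter, DESeq2, the replicate block and KO libraries alone gave 108 to 124, 85 to 95 and 143 to 144. Leaving out 1 library, with members chosen anew where it was WT, gave 110 to 142, 76 to 102 and 142 to 170. No member was called against the rule in any of these fits.

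Replicate numbers are shared between groups, and the labels do not say what a shared number stands for. Same-numbered KO libraries deviated together weakly, with correlations of 0.004 to 0.143. For KO Dex and KO vehicle, however, 6 of 8 libraries correlated best with their own number. For the other 2 pairs of groups it was 8 of 8. The main fit leaves this shared deviation out, and its source was not tested. The replicate block gave 124 members that rose with Dex, 94 that fell with IL4 and 144 higher in Dex than in IL4, and kept the 118, 92 and 144 called without it.

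For 45 named peaks and 3 comparisons, 4122 of 4184 values from the other fits kept the direction and side of the threshold, 27 lost the call, 24 gained it and 11 changed sign. The sign changes were all at uncalled values near 0, and the cause was not tested. With IL4 they were Gm4832 (0.016 with total counts, -0.15 to 0.083 over the fits without 1 library), Mindy3 (-0.041 to 0.24 over the fits without 1 library), the smaller Ttpal peak (-0.023 with loess offsets, -0.087 to 0.46 without 1 library) and Gm46941 (-0.024 with loess offsets, -0.12 to 0.14 without 1 library). With Dex it was Ezh2 (-0.41 to 0.081 without 1 library). The least accessible member had a mean of 9.67 counts per library.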

Other observations

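Other members, outside the rule for named peaks and chosen after their values were seen, lie at genes of varied function. The peak assigned to Hif1a, the oxygen-regulated alpha subunit of HIF-1, lies 145.5 kb from the TSS and had a log2 fold change in KO libraries of 0.53 ± 0.09 with Dex and -0.63 ± 0.10 with IL4 by edgeR's quasi-likelihood test (adjusted p = 1.67e-06 and 1.16e-07). Arnt, which encodes the partner of HIF alpha subunits, had 0.88 ± 0.19 and -0.81 ± 0.24 (adjusted p = 0.000239 and 0.00538) at a peak 8.5 kb away. Of genes of sugar metabolism, Pfkfb3 had 0.69 ± 0.09 and -0.63 ± 0.10 and Gpi1 0.55 ± 0.09 and -0.56 ± 0.10, and all 4 of these values passed. Klf6, a zinc finger transcription factor, had 0.58 ± 0.11 and -0.86 ± 0.13, both past the threshold. These genes were picked by name and no test of them as a group was made.

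At several weaker peaks in KO libraries Dex passed the test and IL4 did not. Slc38a2, an amino acid transporter, had 1.55 ± 0.21 with Dex (adjusted p = 1.08e-08) and -0.28 ± 0.27 with IL4 (adjusted p = 0.481). Gpr174, a receptor for lysophosphatidylserine, had 1.55 ± 0.33 with Dex (adjusted p = 0.000327) and, at 0.52 ± 0.39 (adjusted p = 0.333), the highest value with IL4 of all 146 peaks. Its level was 1.54 ± 0.18 CPM in KO Dex libraries, 0.811 ± 0.20 CPM in KO IL4 libraries and 0.497 ± 0.26 CPM in KO vehicle libraries (SD, n = 4 each).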
